A study of Mus musculus with 4 samples.

Results

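The 9 genes described here encode proteins that detect foreign or misplaced RNA or Z-form nucleic acid in mouse cells, relay the signal, or edit double-stranded RNA: Ddx58, Ifih1, Dhx58, Mavs, Tlr3, Tlr7, Zbp1, Eif2ak2 and Adar. They were chosen by gene symbol in a deposited ribosome profiling table, where all 9 were found among 22396 named genes, and all 9 carried an adjusted p, as did 17347 genes in all. The study profiled ribosome-protected fragments in testis cells positive for the surface marker THY1, in 2 samples of littermate controls and 2 of mice with a knockout of Ddx20, which encodes an RNA helicase found in the SMN complex. The sources used here do not give the age or strain of the mice or how the knockout allele was made, nor whether the samples of a genotype are from separate animals. Each p-value then measures only the spread between these samples, which may be technical.

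Cytosolic RNA is read by the RIG-I-like receptors, helicases that bind double-stranded RNA or RNA with a 5' triphosphate and then assemble the adaptor MAVS on mitochondria, which leads to transcription of type I interferon. Endosomal Toll-like receptors read RNA that has been taken up, the kinase PKR stops translation when double-stranded RNA is present, and the deaminase ADAR1 changes adenosines in the cell's own double-stranded RNA so that it is not read as foreign. Many of these genes are themselves induced by interferon. The question addressed by the comparison is how ribosome occupancy of these genes differs between cells with and without DDX20. Without matched RNA sequencing, occupancy reflects transcript level and translation together.

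The deposited table has 1 row per gene and 1 comparison, with no column per sample. Whole reads in 4 libraries, called A to D here, were recovered from its means, and their totals were 941014, 789570, 282722 and 221439 reads. The fold changes of the table are negative for genes read more in A and B and positive for genes read more in C and D. The table does not name the knockout side, so "rose" means higher in C and D and "fell" means lower there, and no library is given a genotype. The targeted gene Ddx20 had 287 and 244 reads in A and B (305 and 309 CPM, the reads of a gene scaled to a common library size) and 32 and 30 reads in C and D (113 and 135 CPM). It fell in the authors' deposited table (log2 fold change -1.83, standard error 0.243, adjusted p = 4.07e-13). Ddx20 lies in the highest of 4 equal bins of mean level, where 61.2% of 4337 genes fell. In that bin 78.7% of genes had a fold change at or above that of Ddx20. Thy1, whose product marks the cells, had 18, 15, 1 and 3 reads in A to D. All 12 germ cell markers examined had reads in every library, but their summed level was 5526 and 5741 CPM in A and B and 1284 and 1292 CPM in C and D. The sides differ in more than these genes. Olfactory and vomeronasal receptor genes, whose proteins act mainly in the nose, held 45.7 and 46.9 CPM of A and B and 8061 and 8987 CPM of C and D. Over 10193 genes the reads of A and B varied no more than sampling gives (chi-square over its degrees of freedom 0.983, p = 0.890), while C and D varied beyond sampling (1.09 over 10924 genes, p = 1.74e-11). With A and B counted as 1 sample, limma took its spread from C and D alone and called 3 of the 8 genes it tested, beside 66.7% of all 14470 genes, which is no check of the calls.

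The RIG-I-like receptor genes Ddx58, Ifih1 and Dhx58 rose, and none of the 9 genes fell. In the authors' deposited table the log2 fold changes were 3.68 for Ddx58, 2.68 for Ifih1 and 1.36 for Dhx58, and those of the other 6 genes lay between -0.29 and 0.89 and did not pass. The 3 genes of 9 that rose stand against 26.9% of all tested genes, and the 0 that fell against 18.8%. A share of 33.3% is near that background, so the count by itself sets nothing apart. With the tested genes in 4 equal bins by mean level, 0%, 0.623%, 13.3% and 61.2% fell from the lowest to the highest. Only 1 of the 9 genes lies in the highest bin, so the 0 falls set nothing apart either. The median log2 fold change of the 9 was 0.62, against 0.38 over all tested genes. Ddx58 was named for this group with its rise already known.

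**Figure D1:**
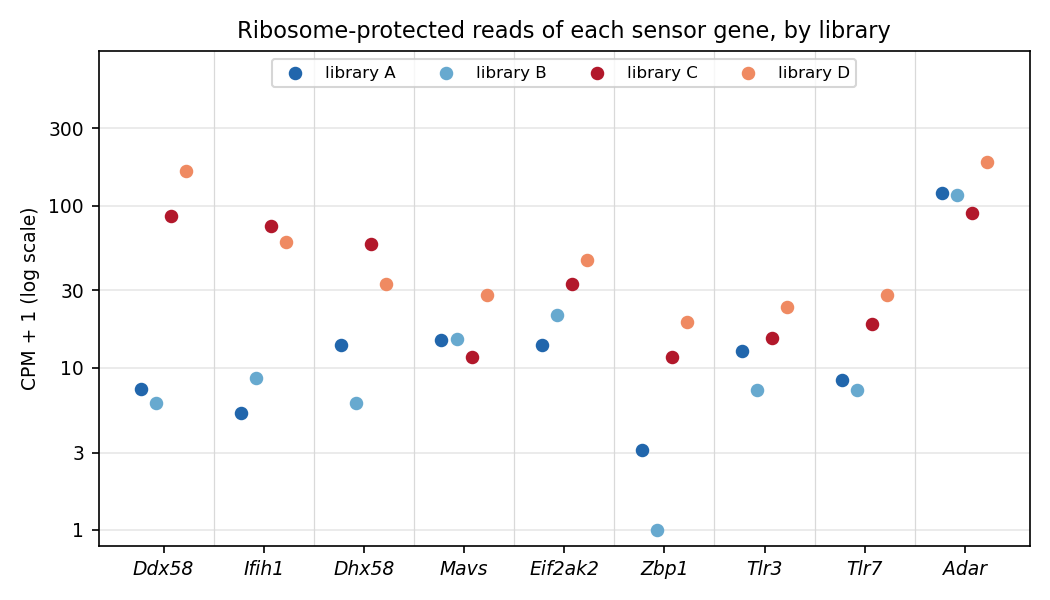
Level of each of the 9 genes in the 4 recovered libraries, as CPM + 1 on a log scale, with 1 point per library. For Ddx58, Ifih1 and Dhx58 the points of libraries C and D lie above those of A and B, with Ddx58 at 6.38 and 5.07 CPM in A and B and at 84.9 and 163 CPM in C and D, while for Adar and Mavs the sides overlap.

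Ddx58 encodes RIG-I, which senses short double-stranded RNA with a 5' triphosphate and carries caspase recruitment domains that engage MAVS. It lies on chromosome 4 (40203777 to 40239825, GRCm38.p6). It had 6 reads in library A, 4 in B, 24 in C and 36 in D, which is 6.38, 5.07, 84.9 and 163 CPM. Every reading in C and D was above every reading in A and B, and D was 1.92 times C (95% exact interval 1.11 to 3.36, counting error only). The authors' deposited table gave a log2 fold change of 3.68 (standard error 0.612, adjusted p = 4.99e-09). The pooled ratio of C and D over A and B was 14.0 with the authors' size factors (95% exact interval 7.12 to 30.7). With library totals it was 20.6 (10.5 to 45.1). These intervals, like those below, cover counting error only, and the reads were not shown to be independent molecules.

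Ifih1 encodes MDA5, the receptor for long double-stranded RNA, which signals through MAVS as RIG-I does. It lies on chromosome 2 (62595618 to 62646255, GRCm38.p6). It had 4, 6, 21 and 13 reads in A to D, or 4.25, 7.60, 74.3 and 58.7 CPM. The sides did not overlap, and C and D differed by less than their counting error (D over C 0.790, interval 0.364 to 1.65). The authors' deposited table gave 2.68 (standard error 0.713, adjusted p = 0.000159). The pooled ratio was 7.94 with the authors' size factors (interval 3.84 to 18.0).

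Dhx58 encodes LGP2, a receptor of the same family without caspase recruitment domains, which modulates signalling by the other two. It lies on chromosome 11 (100694884 to 100704271, GRCm38.p6). It had 12, 4, 16 and 7 reads in A to D, or 12.8, 5.07, 56.6 and 31.6 CPM. Both readings in C and D were above both in A and B. The authors' deposited table gave 1.36 (standard error 0.743), with an adjusted p of 0.0457 that is close to the threshold of 0.05. The pooled ratio was 3.36 (interval 1.70 to 6.80). The call did not hold in limma without library C (log2 fold change 1.32, adjusted p = 0.106), whereas it held without each of the other libraries.

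Together the 3 receptor genes made up 12.3% and 9.86% of the reads of the 9 genes in A and B, and 55.5% and 43.8% in C and D. Their summed level was 23.4 and 17.7 CPM in A and B and 216 and 253 CPM in C and D. The summed level of the other 6 genes was 167, 162, 173 and 325 CPM in A to D. Adar holds most of that sum. Library D was the highest for each of the 6, while library C was below both A and B for Adar and Mavs and above both for Eif2ak2, Tlr3, Tlr7 and Zbp1.

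Promoter windows of 250 bases before to 50 after the annotated start were found in RefSeq (GRCm38.p6) for 6 of the 9 genes, Ddx58, Ifih1, Mavs, Eif2ak2, Tlr3 and Adar, and no window was used here for Dhx58, Tlr7 and Zbp1. The core of the interferon-stimulated response element, a DNA motif bound by interferon regulatory factors, was searched as GAAANNGAAA on both strands. It occurs in 3.44% of 32851 promoter windows, and among the 6 genes in those of Ddx58, Ifih1 and Eif2ak2. The windows of these 3 genes are shown because Ddx58 and Ifih1 rose together and Eif2ak2, which did not pass, holds the same letters. Each is printed 5' to 3' as the table gives it, with the motif in capitals. The window of Ddx58 is chr4:40239776-40240075 on the minus strand, that of Ifih1 chr2:62646206-62646505 on the minus strand, and that of Eif2ak2 chr17:78882523-78882822 on the minus strand.
Ddx58: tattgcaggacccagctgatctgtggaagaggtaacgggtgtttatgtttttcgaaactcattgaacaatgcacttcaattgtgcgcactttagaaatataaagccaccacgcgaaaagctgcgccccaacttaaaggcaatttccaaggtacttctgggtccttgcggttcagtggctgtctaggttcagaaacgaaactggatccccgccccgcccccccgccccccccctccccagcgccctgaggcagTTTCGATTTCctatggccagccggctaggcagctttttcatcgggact
Ifih1: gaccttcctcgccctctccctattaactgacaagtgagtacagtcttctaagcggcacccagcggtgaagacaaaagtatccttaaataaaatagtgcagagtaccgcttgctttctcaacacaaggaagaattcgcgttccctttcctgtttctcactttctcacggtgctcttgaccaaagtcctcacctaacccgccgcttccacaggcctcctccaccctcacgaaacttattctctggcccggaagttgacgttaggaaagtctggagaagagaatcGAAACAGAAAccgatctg
Eif2ak2: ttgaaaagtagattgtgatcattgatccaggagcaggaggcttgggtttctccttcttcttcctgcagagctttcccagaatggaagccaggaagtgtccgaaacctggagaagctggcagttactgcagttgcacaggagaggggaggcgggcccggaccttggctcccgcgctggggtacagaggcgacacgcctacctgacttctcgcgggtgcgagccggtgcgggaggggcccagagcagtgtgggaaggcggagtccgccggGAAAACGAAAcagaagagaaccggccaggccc
The first base of the match lies 3 bases after the start for Ddx58, counting the start as 1, 33 for Ifih1 and 19 for Eif2ak2. In Ddx58 the match is on the opposite strand. The exact letters were not in the windows of Mavs, Tlr3 or the 3 windows of Adar. Near matches were not searched or marked, and they do occur, as in the window of Tlr3 and the third window of Adar. Other motifs were searched in the same way. TATAAA, the letters of the TATA box, is in 13.6% of windows. Among the 6 genes it is in that of Ddx58, with its first base at position -153 from the start. TTCNNNGAA, the gamma-activated site, is in 8.3%, in that of Eif2ak2 and 1 of Adar. A kappa-B site is in 0.411%, in that of Tlr3. None of these overlaps the response element matches. A match describes the sequence and does not show a site in use.

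Mavs encodes the adaptor on the outer mitochondrial membrane that both signalling receptors require, and it lies on chromosome 2 (131234063 to 131248025, GRCm38.p6). It had 13, 11, 3 and 6 reads in A to D, or 13.8, 13.9, 10.6 and 27.1 CPM. Library C was the lowest and library D the highest, so the sides overlapped. In the authors' deposited table its log2 fold change was -0.08 (standard error 0.683, adjusted p = 0.901). The pooled ratio was 0.876 with the authors' size factors (interval 0.358 to 1.95). With 33 reads in all, a difference within that interval was not detectable at this depth. The direction turned with the scaling, the ratio being 1.29 with library totals (interval 0.527 to 2.87), and in limma without library C (log2 fold change 0.46).

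Tlr3 and Tlr7 encode the endosomal receptors for double-stranded and single-stranded RNA. Tlr3 lies on chromosome 8 (45395665 to 45411075) and Tlr7 on chromosome X (167303380 to 167330574, both GRCm38.p6). Tlr3 had 11, 5, 4 and 5 reads in A to D (11.7, 6.33, 14.1 and 22.6 CPM) and Tlr7 had 7, 5, 5 and 6 reads (7.44, 6.33, 17.7 and 27.1 CPM). With the authors' size factors the sides overlapped for Tlr3 and not for Tlr7. In the authors' deposited table neither passed, with 0.22 for Tlr3 (adjusted p = 0.731) and 0.62 for Tlr7 (adjusted p = 0.344). The pooled ratio of Tlr3 was 1.31 (interval 0.512 to 3.16). That of Tlr7 was 2.14 (interval 0.856 to 5.30). Tlr7 passed in limma with library totals (1.64, adjusted p = 0.00896) and with upper-quartile factors (1.54, adjusted p = 0.0142), where 69.2% and 69.0% of 14470 tested genes were called.

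Zbp1 encodes a sensor of Z-form RNA and DNA that recruits the kinase RIPK3 and can start necroptosis. It lies on chromosome 2 (173206612 to 173218959, GRCm38.p6). It was the least read of the 9, with 2, 0, 3 and 4 reads in A to D. The 0 reads of library B allow up to 3.80 CPM, and the other libraries were at 2.13, 10.6 and 18.1 CPM. Its log2 fold change was 0.89 in the authors' deposited table (standard error 1.33, adjusted p = 0.160) and did not pass. The pooled ratio was 8.18 with the authors' size factors, with an interval from 1.56 to 80.7, so the deposited fold change is the smaller of the measures. Over all genes with a p-value, 99.4% had a fold change over its error that was smaller than the z value of the p, as shrunken fold changes have. With 9 reads Zbp1 missed the minimum of 10 in limma. With no minimum it passed (3.0, adjusted p = 0.00110), where 75.1% of all tested genes did, 54.9% rising and 20.2% falling.

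Eif2ak2 encodes PKR, the kinase that phosphorylates eIF2alpha when it binds double-stranded RNA. It lies on chromosome 17 (78850504 to 78882572, GRCm38.p6). It had 12, 16, 9 and 10 reads in A to D, or 12.8, 20.3, 31.8 and 45.2 CPM. Both readings in C and D were above A and B, by a margin within counting error with the authors' size factors (pooled ratio 1.59, interval 0.837 to 2.94). Its deposited log2 fold change of 0.47 did not pass (the authors' deposited table, standard error 0.592, adjusted p = 0.416). In limma it passed with library totals (1.26, adjusted p = 0.00797) and with upper-quartile factors (1.16, adjusted p = 0.0141).

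Adar encodes ADAR1, the interferon-inducible and constitutive deaminase that turns adenosine to inosine in double-stranded RNA. It lies on chromosome 3 (89714469 to 89753455, GRCm38.p6). It had the most reads of the 9, with 112, 91, 25 and 41 in A to D, or 119, 115, 88.4 and 185 CPM. Libraries A and B lay between C and D. Libraries C and D themselves differed by more than counting error, D being 2.09 times C (interval 1.24 to 3.59), while B over A was 0.968 (0.726 to 1.29). The authors' deposited table gave -0.29 (standard error 0.433, adjusted p = 0.541), which did not pass. The pooled ratio was 0.759 with the authors' size factors (interval 0.566 to 1.01) and 1.12 with library totals (0.832 to 1.48). The direction of Adar turned with the scaling and with the library left out. In limma it was 0.11 without library C (adjusted p = 0.702) and -0.94 without library D (adjusted p = 0.00238).

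When limma was fitted with the authors' size factors, Ddx58, Ifih1 and Dhx58 passed and 5 of the 8 genes tested did not. There 69.7% of all tested genes passed (40.9% rose and 28.8% fell), more than in the authors' deposited table. With library totals 50.2% rose and 18.9% fell, and with upper-quartile factors 48.5% rose and 20.6% fell, and 5 of the 8 genes passed under each. At a minimum of 50 reads 71.6% passed (19.9% rose and 51.7% fell), among them both genes of the 9 with enough reads, Ddx58 upward and Adar downward.

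**Figure D2:**
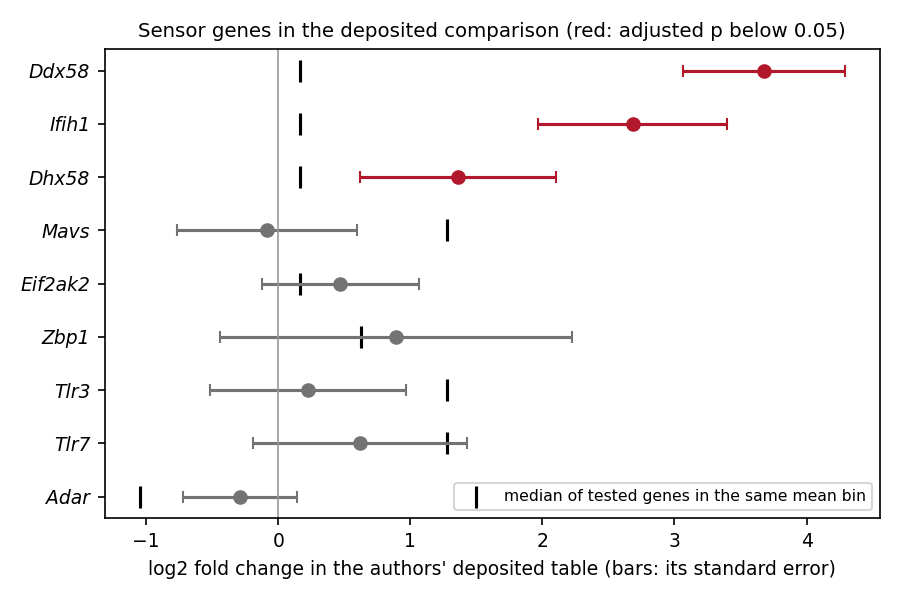
Log2 fold change of the 9 genes in the authors' deposited table, with bars for its standard error and a black mark at the median of all tested genes in the same bin of mean level. The 3 receptor genes, in red, passed an adjusted p of 0.05 and lie at 3.68, 2.68 and 1.36, right of a bin median of 0.16. Dhx58 is near the lower edge of that bin, and the median of the next lower bin was 1.28. The other 6 genes did not pass.

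Fold changes in this table depend on the mean level of a gene, so the 9 genes were set beside genes of like level. The tested genes were put in 4 equal bins by mean normalized count. Ddx58 (mean 24.8), Ifih1 (14.1), Eif2ak2 (11.8) and Dhx58 (10.7) lie in the third bin (10.3 to 27.2), where 28.7% of 4336 genes rose and 13.3% fell. In that bin 3 of these 4 genes rose. A fold change at least as high as that of Ddx58 was found for 272 of the 4336 genes (6.27%), for 496 at that of Ifih1 (11.4%) and for 1075 at that of Dhx58 (24.8%). Dhx58, at a mean of 10.7, lies near the lower edge of that bin. In the second bin 44.6% of genes rose and the median log2 fold change was 1.28, close to the 1.36 of Dhx58. Fold changes this high for genes read this often were thus not particular to the receptor genes.

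Among the genes that did not pass, Eif2ak2 had 1830 of the 4336 genes of its bin (42.2%) at or above its fold change. Mavs, Tlr3 and Tlr7 are in the second bin, where 44.6% of genes rose and the median log2 fold change was 1.28, and all 3 were below that median. Zbp1 is in the lowest bin, where 22.5% rose and 35.3% of genes were at least as high as it. Adar (mean 58.1) is in the highest bin, where 61.2% of genes fell and the median was -1.05. Its -0.29 lies above that median, and 1203 of 4337 genes (27.7%) were at least as high.

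**Figure D3:**
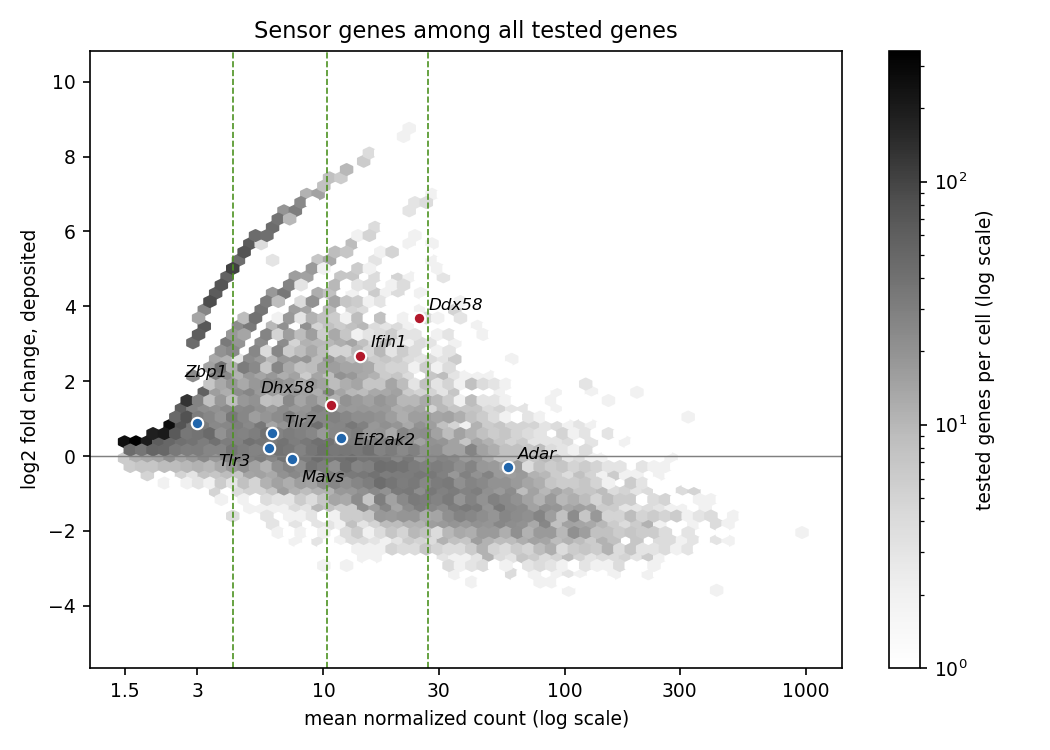
Log2 fold change in the authors' deposited table against the mean normalized count (log scale) for the tested genes, shaded by the number of genes per cell, with dashed lines between the 4 bins of mean level. Ddx58 and Ifih1 (red) sit in the upper part of the third bin. Dhx58 (red) sits lower and near the line to the second bin. The 6 genes that did not pass (blue) sit within the bulk of genes of like level.

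The readings of C and D were above those of A and B for 6 of the 9 genes with the authors' size factors, against 53.9% of 17344 tested genes, and for 7 with library totals, against 62.7%. With the size factors none of the 9 had both readings of C and D below A and B, against 30.8% of tested genes. That share was not taken by bin of mean level, on which falls depend. By bin of mean level the share with C and D above was 81.8%, 70.8%, 45.8% and 17.4% from the lowest to the highest. Ddx58, Ifih1, Dhx58 and Eif2ak2 all had C and D above in the bin where 45.8% did, and 1 of 3 genes, Tlr7, did where 70.8% did.

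Rises also went with the length of the gene on the chromosome. In the third bin of mean level, 15.7% of the genes in the shortest of 4 equal classes of gene span (up to 11931 bases) rose, then 22.4%, 29.1% and 47.5% in the longest. Dhx58, with a span of 9388 bases, is in the shortest class. Ddx58 (36049 bases), Ifih1 (50638) and Eif2ak2 (32069) are in the one where 29.1% rose (28138 to 71626 bases). The part of gene span in the fold changes of the 9 genes was not tested.

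**Figure D4:**
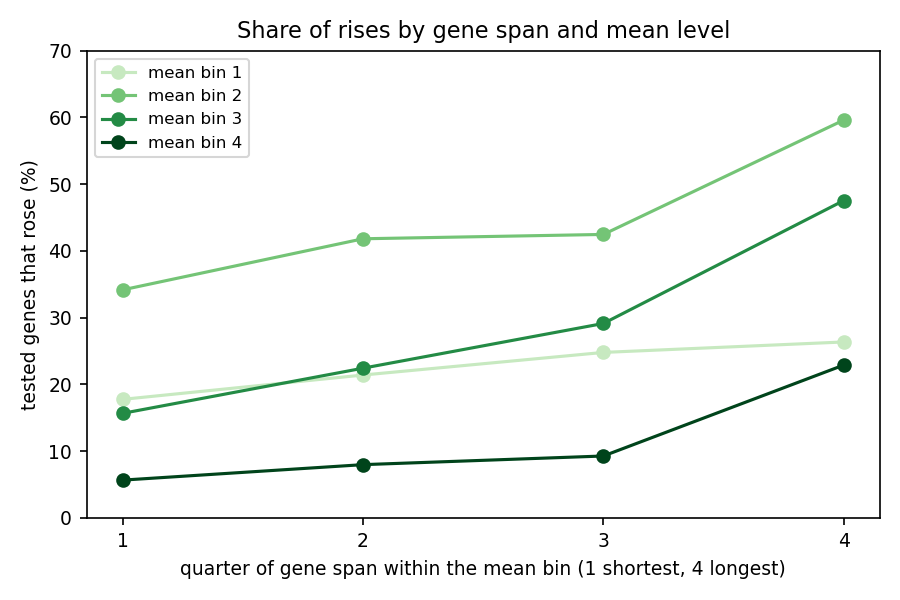
Percent of tested genes that rose in the authors' deposited table, by class of gene span within each of the 4 bins of mean level. The share is higher in the longest than in the shortest class of each bin, from 15.7% to 47.5% in the third bin, which holds Ddx58, Ifih1, Dhx58 and Eif2ak2.

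Sensor genes are read strongly in immune cells, so markers of those cells were set beside them. The 13 macrophage and myeloid markers summed to 384 and 388 CPM in A and B and to 732 and 745 CPM in C and D. Of the 12 tested, 3 rose (Csf1r, Adgre1 and C1qb) and Lyz2 fell, and each of the 13 had reads on both sides. The 8 dendritic cell markers summed to 26.6 and 29.1 CPM in A and B and to 202 and 208 CPM in C and D. Siglech, Xcr1 and Clec9a had no read in A or B, and 5 of 7 tested dendritic cell markers rose. Such gains were not particular to these markers. Olfactory and vomeronasal receptor genes were at 45.7 and 46.9 CPM in A and B and at 8061 and 8987 CPM in C and D. The 10 T and B lymphocyte markers summed to 17.0 and 24.1 CPM in A and B and to 131 and 135 CPM in C and D, with Trac among the markers at 0 in A and B, but of the 9 tested only Cd4 rose. Endothelial markers were at 169 and 163 CPM against 410 and 379 CPM, with 2 of 8 rising. Leydig markers were at 51.0 and 45.6 CPM against 131 and 158 CPM, and none of 6 passed. Peritubular and stromal markers were at 1164 and 1107 CPM against 2433 and 2402 CPM, of which 4 of 8 rose and 2 fell, with most of the reads in the collagen genes Col1a1 and Col1a2. Sertoli markers were at 406 and 360 CPM in A and B and at 276 and 330 CPM in C and D, with 1 of 9 rising and 2 falling. In bulk libraries fewer cells of a type and less RNA per cell cannot be told apart. For comparison with these counts, 26.9% of all tested genes rose, and 44.6% did in the second bin of mean level. For the CPM sums, the median log2 fold change of 14470 genes in limma with library totals was 0.91. A typical gene was thus also higher in C and D on that scale. The study isolated the cells as THY1-positive, and how far this selection held in each library was not tested. Thy1 itself had 18, 15, 1 and 3 reads in A to D. The part of these cell types in the receptor genes' rise was not tested.

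The genes around the sensors were described with lists for each step of the pathway, without the 9 genes themselves. Over all lists 134 genes were tested, of which 38 rose (28.4%) and 28 fell (20.9%), near the 26.9% and 18.8% of all tested genes. The lists were chosen with earlier results of these data known.

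Of 30 genes that act with or below MAVS and the endosomal receptors, 9 rose (30%), none fell and 21 did not pass. The median log2 fold change was 0.60 in the authors' deposited table. The share that rose is near the 26.9% of all tested genes. Of the 30 genes, 13 lie in the lower bins of mean level, where 0% and 0.623% of genes fell, and only 2 in the highest. Those that rose included Irf7, the transcription factor that amplifies interferon-alpha expression, Unc93b1, the chaperone that brings endosomal Toll-like receptors to their compartment, Irak1, a kinase downstream of Toll-like receptors, and Tab2, an adaptor of the kinase TAK1. Irf7 had 0, 0, 10 and 10 reads in A to D, which is at least 15.6-fold higher in C and D against a floor of 3 reads over A and B. Unc93b1 had 9, 10, 27 and 17 reads (2.22 in the authors' deposited table, adjusted p = 9.49e-05). Irak1 had 3, 3, 17 and 11 reads (3.06, adjusted p = 0.000286, deposited table by the authors). The kinase Tbk1 and the transcription factor Irf3, which act directly below MAVS, did not pass (-0.29 and -0.32, with 78, 54, 25 and 20 and 56, 38, 19 and 12 reads). Both were picked out after their values were seen. The others that rose were Traf3, Ripk1, Tbkbp1, Ikbke and Nfkb1.

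Among 21 tested cofactors and regulators of RIG-I, MDA5 and MAVS, 3 rose and 6 fell, with a median of 0.11. The genes with the smallest p all fell and all have wide duties outside RNA sensing. They were the 14-3-3 protein Ywhae (-1.88), the RNA helicases Ddx3x (-2.32) and Dhx15 (-1.96) and the phosphatase subunit Ppp1ca (-1.82) in the authors' deposited table. Ddx3x was at 594, 614, 170 and 181 CPM in A to D. All 4 lie in the highest bin of mean level, where 61.2% of genes fell.

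Of 18 tested genes for other RNA sensors and RNA-activated enzymes, 8 rose and 5 fell, with a median of 1.14. The 5 that fell were all DEAD- or DEAH-box helicases, and those with the smallest p were Dhx9 (-2.89), Ddx1 (-2.63), Ddx21 (-2.05) and Dhx36 (-1.87) in the authors' deposited table, while the fifth was Dhx33 (-0.72). The 8 that rose included the oligoadenylate synthetase genes Oas1b, Oas2, Oas3 and Oasl1, the RNA-binding genes Ifit1 and Ifit2, and the inflammasome gene Nlrp3. Dhx9 was at 1831 and 1878 CPM in A and B and at 375 and 352 CPM in C and D, whereas Oas3 had 4, 0, 25 and 18 reads. All 5 that fell lie in the highest bin of mean level, where 61.2% of genes fell and 11.7% rose, and the 8 that rose lie in the middle bins, where 44.6% and 28.7% rose.

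DNA sensing genes had 3 rises and 3 falls among 12 tested, with a median of 0.23. Sting1, the adaptor of cytosolic DNA sensing, had 6, 9, 19 and 12 reads and rose (1.96 in the authors' deposited table, adjusted p = 0.00278). The DNA sensor Tlr9 and the nuclease Trex1 also rose (3.65 and 2.14 in the authors' deposited table). The nucleotide hydrolase Samhd1 (-1.65) and the ribonuclease H2 subunits Rnaseh2a (-1.53) and Rnaseh2b (-2.10) fell in the same authors' deposited table, and the subunit Rnaseh2c did not pass (-1.04, adjusted p = 0.0714). The 3 that fell lie in the highest bin of mean level, where 61.2% of genes fell. Samhd1 was at 249, 232, 117 and 99.4 CPM in A to D.

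Of 14 tested genes for kinases related to PKR and for their partners, translation factors among them, 10 fell and none rose, with a median of -1.03. The kinase Eif2ak1 fell (-0.81), and Eif2ak3 (-0.05) and Eif2ak4 (0.66) missed the threshold, all by the authors' deposited table, and these 3 were picked out after their values were seen. By p the leading genes were the guanine exchange factor subunits Eif2b1 (-2.59), Eif2b3 (-2.13) and Eif2b5 (-1.56) and the PKR substrate Eif2s1 (-2.48) in the authors' deposited table. Eif2s1 was at 130 and 117 CPM in A and B and at 31.8 and 27.1 CPM in C and D. Of these 14 genes 13 lie in the highest bin of mean level, where 61.2% of genes fell.

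Relatives of ADAR1 were few. Of 4 tested, Adarb2 rose (4.48 in the authors' deposited table, adjusted p = 0.00387), with 1, 0, 14 and 5 reads, and Adarb1, Adad1 and Adad2 did not pass. Of 6 genes that act with ZBP1 in cell death, the necroptosis effector Mlkl rose (2.81, with 4, 4, 16 and 14 reads) and so did the kinase Ripk1 (1.35, with 10, 6, 11 and 11 reads) in the authors' deposited table. Ripk3 did not pass (0.22), nor did Casp8, Fadd and Casp6.

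Among 13 tested genes of interferon reception and response, 2 rose and 4 fell, with a median of 0.35. The receptor subunits Ifnar1 (-1.33) and Ifngr1 (-1.33), the kinase Jak1 (-1.73) and the transcription factor Irf1 (-1.47) fell in the authors' deposited table. These 4 are among 6 genes of the list in the highest bin of mean level, where 61.2% of genes fell. Those that rose were Irf9 (2.11) and Jak2 (1.20). Of 34 tested interferon-stimulated genes outside the 9, 19 rose and 2 fell, with a median of 1.57, against 26.9% rises and 18.8% falls over all tested genes. Those with the smallest p were the ubiquitin-like modifier Isg15 (8, 6, 47 and 44 reads, 3.83 in the authors' deposited table), the membrane protein Ifitm3 (11, 5, 59 and 34 reads, 3.65), Samhd1, which fell, and Oas3. The summed level of the list was 766 and 773 CPM in A and B and 2324 and 2208 CPM in C and D. Several of these genes have near copies in the mouse genome (Oas, Ifit and Ifitm genes), whose reads the counting could split, so their single values are uncertain. The dendritic cell markers named above moved in the same direction (26.6 and 29.1 CPM against 202 and 208 CPM). Olfactory and vomeronasal receptor genes did so too (45.7 and 46.9 CPM against 8061 and 8987 CPM). The part of any cell type in the rise of this list was not tested.

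**Figure D5:**
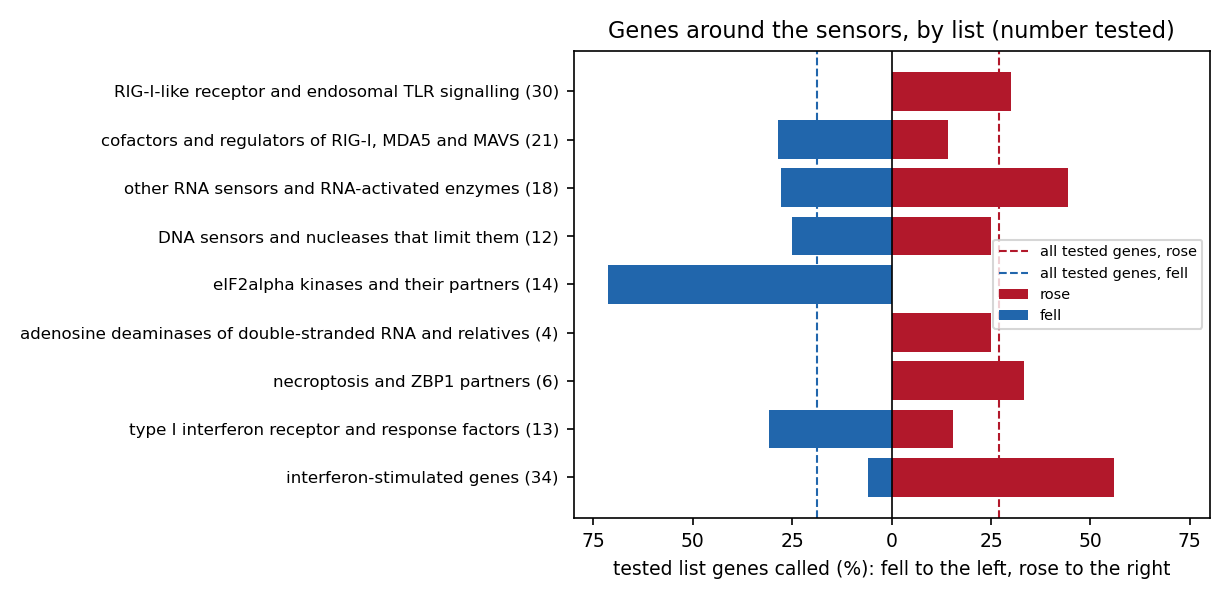
Percent of tested genes of each list that rose (red, to the right) or fell (blue, to the left) in the authors' deposited table, with the number tested after each name and dashed lines for all tested genes (26.9% rose, 18.8% fell). Interferon-stimulated genes have the highest share of rises (19 of 34) and the eIF2alpha kinases and partners the highest share of falls (10 of 14).

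The genes whose pattern over the 4 libraries was most like that of a sensor were found by the distance in log2(CPM + 1). For Ddx58 these were Zfhx4 (distance 0.23, with 7, 4, 25 and 39 reads), Myrf (0.52) and Cacna1d (0.55). For Eif2ak2 they were 2310022A10Rik (0.17), Lsm11 (0.18) and Ro60 (0.23), and for Adar they were Rac1 (0.38), Pum2 (0.45) and Rabgap1 (0.46). None of these 9 genes is on the lists above. The libraries share depth and side with every other gene, so this likeness over 4 libraries is a description only.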

How the data were processed

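Per the labels' protocols, each sample held about 1000 cells, digested with RNase I, and fragments of 26 to 34 nucleotides were sequenced. The submitters' processing notes name Trimmomatic (0.39), STAR (2.7.5c), StringTie (2.1.7), DESeq2, edgeR and mm10, without roles. Per the file headers, the deposited table holds a signal (mean normalized count), a log2 fold change with its standard error, and a p-value with its adjusted value for each gene. The planned count test needed a column per sample, so the authors' own comparison, called at an adjusted p under 0.05, was the main result. Of its 22397 rows, 1 without a gene name (0.00475% of the summed means) was left out.

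Each mean is a sum of whole reads times 1 step per library, and with 4 steps 20512 of 20515 rows with reads had 1 solution (relative tolerance 8e-15). A library's side is the sign of the fold change of genes whose only read it holds. As alternatives, limma 3.58.1 (voom) fitted the 14470 genes with at least 10 recovered reads, with Benjamini-Hochberg adjustment, after being tested on simulated data. The simulation used the recovered depths and a set dispersion (spread beyond sampling) of 0.05. There limma recovered 3 of 100 genes changed 2-fold and 47 of 100 changed 4-fold, with 3 false calls over 14324 genes. Few genes were changed in the simulation, whereas limma with the authors' size factors called 69.7% of the real genes. The recovered shares and the false calls may therefore not hold for these data, and the authors' comparison was not simulated. A gene that did not pass is still not shown to be unchanged. Intervals of pooled ratios are exact (Clopper-Pearson, 95%). Members, lists and the naming rule (the 4 called genes of smallest p per list) were chosen with earlier results of these data known. Other names complete a count or were chosen after their values were seen.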

Additional observations from a re-analysis of the deposited data

How the results depend on the processing

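The deposited comparison cannot be refitted, so 14 limma settings on the recovered reads were compared with it. Ddx58 and Ifih1 kept their direction and passed in every setting that tested them, at 3.22 to 4.19 over 14 settings and at 2.49 to 3.49 over 13. The number of sensor genes called was 3 in the deposited table and 2 to 4 when each library was left out in turn, with 2 without library C and 4 without library D. Each of those fits has 1 library on a side, which is assumed to vary like the other side, and they called 52.8% to 63.9% of all genes. The number called was 5 with upper-quartile factors and 5 with library totals, scalings that moved the median of all genes by 0.46 and 0.56 (log2). Under those scalings, in that order, Eif2ak2 passed at 1.16 and 1.26 and Tlr7 at 1.54 and 1.64, Mavs turned to 0.24 and 0.34, and Adar turned to 0.084 with library totals. Zbp1 was tested only with no filter on reads, where it passed at 3.0. With at least 50 reads, only Ddx58 and Adar were tested, and Adar passed at -0.47. With each library left out in turn, Dhx58 ranged from 1.22 to 2.42 (not passing without library C, at 1.32), Mavs from -0.77 to 0.46 and Adar from -0.94 to 0.11. The 66 called pathway genes of 134 became 48 to 97 of the genes tested over the settings, with 48 of 70 at a minimum of 50 reads. Of all genes, 45.7% were called in the deposited table, 52.8% to 75.1% over the settings and 71.6% at that minimum. The causes of these changes were not tested. Depth limits the result most for Zbp1, Tlr7, Tlr3 and Mavs, each with 9 to 33 reads in all. The 1546 olfactory and vomeronasal receptor genes held 43 and 37 reads in A and B and 2279 and 1990 in C and D. Of them 1509 and 1514 had no read in A and B, and 482 and 534 had none in C and D. The part of such reads in the few reads of Zbp1, Tlr7, Tlr3 and Mavs was not tested. No paired analysis was possible because the table has no column per sample and the recovered libraries carry no replicate number.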
